A study of Homo sapiens with 12 samples.

Results

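The hairpins sh-A and sh-C, both against 1 gene, were compared with each other across all genes in H1975 cells, a human lung adenocarcinoma line that carries activating EGFR mutations. Their target is KAT5, also called TIP60. They were set side by side because KAT5 transcript was reduced least with sh-A and most with sh-C. The contrast is between 6 of the 12 RNA-seq libraries of the series, 3 per hairpin, and all 12 entered the model that estimates the spread between libraries. In all groups the hairpin was switched on with doxycycline at 0.5 µg/ml for 2 days, and the cells were not given any other agent according to the labels. The sh-A libraries carry replicate numbers 3, 4 and 5 and the sh-C libraries 1, 2 and 3. Both are labelled as KAT5 knockdown. A further 3 libraries with a control hairpin, labelled wild type and treated with the same doxycycline, give the reference level below. They are not contrasted with a hairpin, and bear on the tests only through the shared estimate of the spread. The series' description of its hairpins names sh-C and one other hairpin, but not sh-A. A difference between sh-A and sh-C holds everything that differs between the 2 hairpin cultures, so the depth of KAT5 loss, the hairpin's own sequence and the culture cannot be told apart. Whether the 3 libraries of a hairpin are separate cultures is not labelled, and the p-values therefore measure only the spread between these libraries, which may be technical.

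KAT5 is the catalytic subunit of the NuA4/TIP60 complex, a large assembly that acetylates histones H4 and H2A and exchanges the histone variant H2A.Z into chromatin through its EP400 subunit. The complex is recruited to promoters by sequence-specific factors, among them MYC and p53, and to DNA double-strand breaks, where KAT5 also acetylates the ATM kinase. In lung epithelium, EGFR passes growth factor signals to the ERK kinases and on to MYC and other early genes, and junction proteins such as E-cadherin hold the cells in sheets.

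The 6 libraries held 19279593 to 28073366 expected counts assigned to genes, and the 3 control libraries 15631504 to 24228536. Library sh-A 3 stood apart from the other sh-A libraries. Its log2 levels correlated with those of sh-A 4 and sh-A 5 at Pearson's r of 0.9665 and 0.9646 across genes, against 0.9905 between sh-A 4 and sh-A 5 and 0.9906 to 0.9936 among the sh-C libraries. Almost only with sh-A, 118 genes were read: their mean there was above 3 CPM, counts scaled by the library total, and no library of another group reached 0.3 CPM. They summed to 2145 CPM in sh-A 3, 388.3 in sh-A 4 and 396.5 in sh-A 5. The same genes summed to 2.44 to 2.86 CPM in the sh-C libraries and 3.92 to 4.10 in the controls, low sums that their choice fixed. The cut on the sh-A mean also favours genes high in a single sh-A library. A list of 14 genes typical of HEK293, a human embryonic kidney line, was also highest in sh-A 3. Of the 14, 8 were picked from an earlier look at these libraries, and the list shares genes with the 118. That both sets go together was thus partly fixed by their choice. The HEK293 list summed to 416 CPM in sh-A 3, 70.8 in sh-A 4 and 71.7 in sh-A 5, against 10.5 to 11.4 with sh-C and 6.74 to 7.82 in the controls. No gene of that list was at 0 in an sh-A library, and 8 to 10 were at 0 in each sh-C library. Whether RNA of other cells takes part in the results below was not tested. Log2 differences of named genes that moved by over 1.5 times without sh-A 3 are also given without it, and lost calls are named.

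KAT5 itself was read at 19.5, 19.96 and 18.7 CPM in sh-A 3, 4 and 5, at 8.24, 7.30 and 8.21 CPM in sh-C 1, 2 and 3, and at 27.4 to 31.8 CPM in the controls. Levels below are CPM in that library order. The hairpin groups did not overlap, and both lay under all 3 controls. The level was 1.29 log2 units (SE 0.10) higher with sh-A than with sh-C, and since the pair was chosen on KAT5 this is a description without a test.

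Across the 15592 genes tested, 5502 (35.3%) differed between sh-A and sh-C at an edgeR adjusted p below 0.05, called genes from here on. Of these, 2787 genes (17.9% of those tested) were higher with sh-A and 2715 (17.4%) were lower. At least 2-fold differences were less even: 1210 genes (7.76%) were at least 2-fold higher with sh-A and 307 (1.97%) at least 2-fold lower. A fit on the 6 libraries alone called 2291 genes higher and 1811 lower. Without sh-A 3, 6726 of 15703 genes (42.8%) were called, and 5041 of the 5502 calls remained in the same direction, among them 1141 of the 1210 and 302 of the 307. The share of calls that were higher with sh-A was 50.7% on counts and 69.7% (3895 of 5586) on the deposited FPKM values, where the median log2 difference over all genes was 0.13 instead of 0.01. Small list medians below are to be read against that shift of scale.

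**Figure D1:**
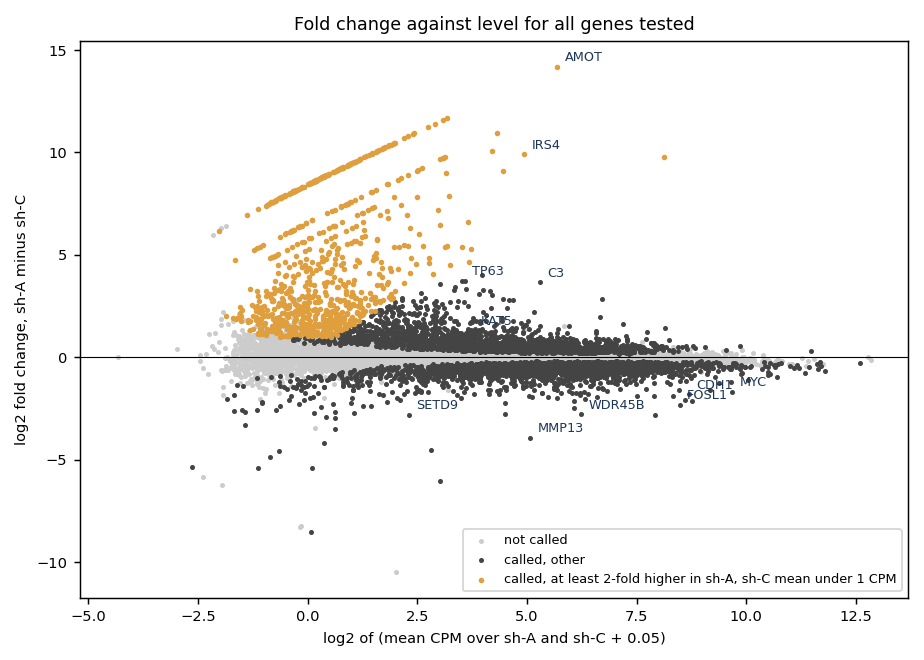
Log2 fold change of sh-A minus sh-C (vertical) against log2 of the mean level in CPM over the 6 libraries, with 0.05 added (horizontal), 1 point per gene tested. Grey points are not called, dark points are called, and orange points are the 774 genes called at least 2-fold higher in sh-A whose mean in sh-C is under 1 CPM; these form the upper left of the plot, while MYC, CDH1, FOSL1 and WDR45B lie at higher levels below 0.

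Among the 5502 called genes, the sh-A mean lay farther from the control mean than the sh-C mean did in 3362 (61.1%) and the sh-C mean lay farther in 2140. The control mean fell between the 2 hairpins for 3662 of them, so that sh-A and sh-C sat on opposite sides of it. For genes at least 2-fold higher with sh-A the share with sh-A farther was 76.6%, and for genes at least 2-fold lower it was 82.4%. These positions are counts on fitted means and carry no test of their own. They were counted only over genes called for a gap between the hairpins. Part of the shares may follow from that choice, and no share over all genes tested was taken. From CPM means with 0.5 added, an alternative chosen after seeing the data, the shares were 61.7%, 79.3% and 81.1%, and with sh-A 3 left out of the sh-A mean 62.4%, 77.4% and 82.7%.

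The 10 genes lowest with sh-A relative to sh-C were taken over called genes read at 1 CPM or more in both groups. They were also required to be without overlap and called without sh-A 3 too. This ranking is against sh-C and not against control. Among the 10 were MMP13, a collagenase, SETD9, a SET-domain protein, WDR45B, an autophagy protein that binds phosphoinositides, and the secreted WNT antagonist DKK1. MMP13 was at 1.72, 5.49 and 5.34 CPM with sh-A and 67.3, 60.6 and 61.5 with sh-C, beside 76.0 to 86.7 in the controls (log2 fold change -3.92, SE 0.27, edgeR adjusted p = 2.1e-06). Every sh-A library was far below every sh-C and control library. WDR45B was at 19.6, 19.5 and 18.4 CPM against 121, 140.4 and 133 (log2 fold change -2.78, SE 0.08, edgeR adjusted p = 1.3e-09), with controls at 106 to 107. The 3 sh-A libraries stood close together, and sh-A 3 did not differ from the others. SETD9 stood at 1.31, 1.12 and 1.27 CPM against 8.29, 9.45 and 8.03 (log2 fold change -2.79, SE 0.16, edgeR adjusted p = 5.3e-07), with controls at 4.96 to 6.94. For DKK1 the levels were 26.9, 18.8 and 16.4 CPM with sh-A and 104, 122 and 113 with sh-C (log2 fold change -2.45, SE 0.19, edgeR adjusted p = 3.2e-06), and the controls lay between them at 57.0 to 59.3. The same group held the growth factor FGF1 (-2.17), the muscle ring-finger protein TRIM55 (-2.13), the dimethylarginine hydrolase DDAH1 (-2.24) and FOSL1 and EGR1, described with the signalling genes. CGB8, a chorionic gonadotropin beta gene at log2 -2.76, has near-identical neighbours that share its reads, so its own value is uncertain.

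The genes highest with sh-A relative to sh-C by the same rule fell into 2 patterns within the sh-A libraries. TP63, a transcription factor of basal epithelium, was at 10.8, 27.0 and 29.1 CPM with sh-A and 1.83, 1.44 and 1.74 with sh-C (log2 fold change 3.74, SE 0.34, edgeR adjusted p = 1.2e-05), with controls at 2.00 to 2.70. C3, the central complement component, was at 46.9, 83.9 and 88.8 CPM against 5.04, 6.30 and 5.93 (log2 fold change 3.66, SE 0.28, edgeR adjusted p = 3.4e-06), with controls at 3.27 to 4.84. The protocadherin FAT2 (3.57), the neutrophil surface protein CD177 (3.28) and the peptidylarginine deiminase PADI3 (3.27) were like them within sh-A. All 5 were lowest in sh-A 3 among the sh-A libraries, and the log2 difference was larger without it, 4.07 for TP63, 3.90 for C3 and 4.00 for FAT2. For PADI3, sh-A 3 (9.28 CPM) lay within the controls (6.23 to 10.32) and sh-C (2.63 to 3.30) under them. For FAT2, sh-C (1.11 to 1.47 CPM) was also under the controls (1.79 to 2.50). In the other 5 genes, sh-A 3 was the highest library. UCHL1, a ubiquitin hydrolase of neurons, was at 63.5, 11.7 and 12.9 CPM against 1.47, 1.85 and 2.14 (log2 fold change 4.00, SE 0.59, edgeR adjusted p = 0.00036), and the difference was 2.74 without sh-A 3. DSC3, a desmosomal cadherin (3.75, and 2.73 without sh-A 3), SH3PXD2A, a scaffold of invadopodia (3.42 and 2.76), the phosphatase PTPN13 (3.32 and 2.64) and KCTD12 (3.22 and 2.59) shared that pattern. The rule for naming these 10 genes required a call without sh-A 3 and no overlap between the hairpins.

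**Figure D2:**
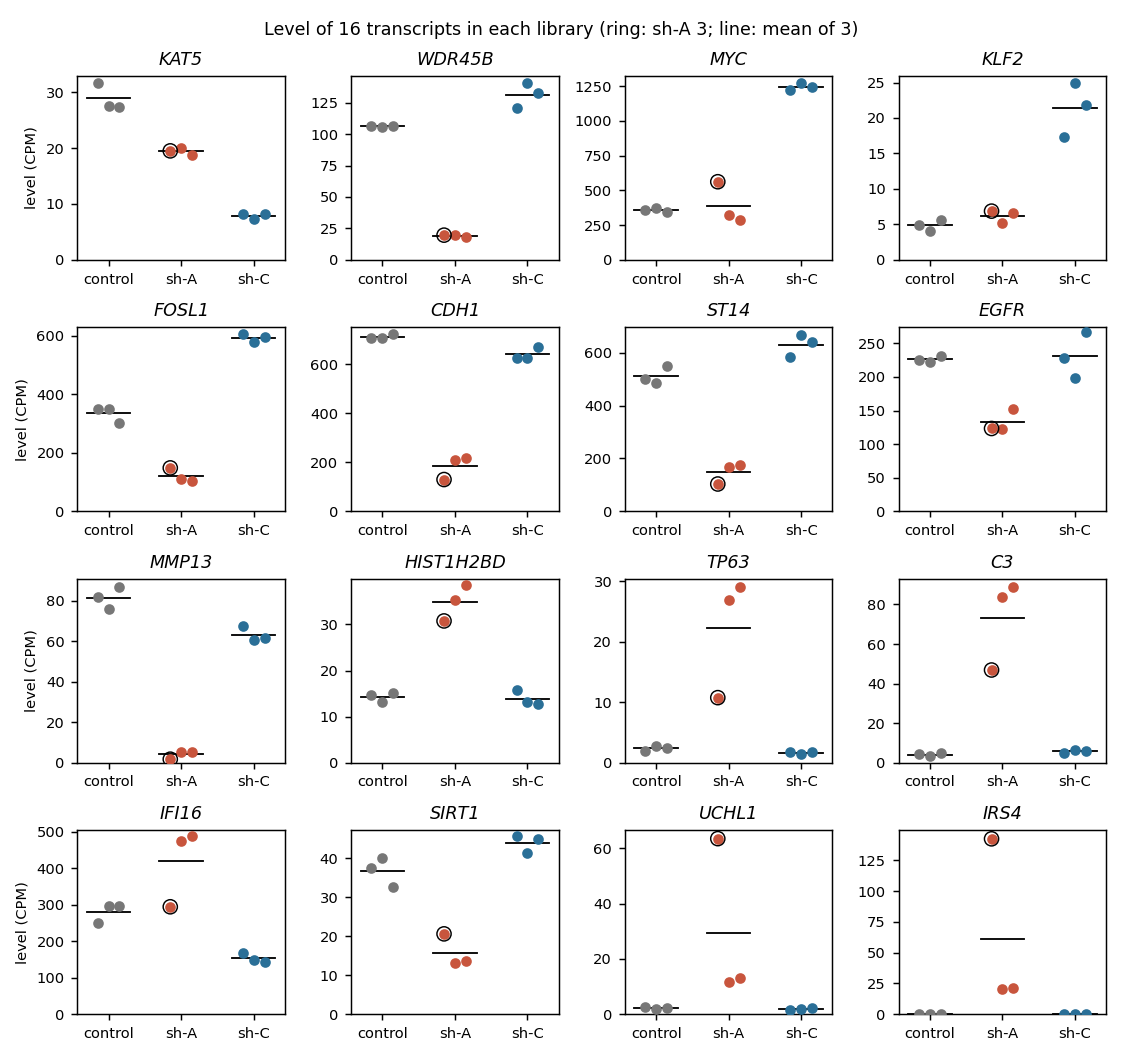
Level in CPM (vertical, linear from 0) of 16 transcripts in the control, sh-A and sh-C libraries, 1 point per library with the mean of 3 as a line; the ring marks sh-A 3. MYC and KLF2 are high in the 3 sh-C libraries, CDH1, ST14, WDR45B and MMP13 are low in the 3 sh-A libraries, and UCHL1 and IRS4 are highest in sh-A 3.

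Replication-dependent histone genes had the highest median of the 35 lists of cell functions. These genes supply the bulk of histone protein in S phase, and their main transcripts end in a stem-loop instead of a poly(A) tail, so a poly(A)-selected library reads only the polyadenylated part of their output. Of 18 histone genes tested, 13 were called higher with sh-A and 0 lower, a share of 72.2% higher against 17.9% over all genes. The median log2 difference was 0.97, against 0.01 over all genes tested. HIST1H2BD, an H2B gene, was at 30.8, 35.3 and 38.6 CPM with sh-A and 15.7, 13.1 and 12.7 with sh-C (log2 fold change 1.34, SE 0.12, edgeR adjusted p = 1.1e-05). The controls, at 13.1 to 15.2, were level with sh-C. HIST2H2BE was at 13.6, 20.9 and 21.0 CPM against 8.34, 8.30 and 8.92 (log2 fold change 1.12, SE 0.16, edgeR adjusted p = 0.00028), with controls at 8.67 to 10.2. The H2A gene HIST1H2AC stood at 10.8, 17.4 and 15.7 CPM against 6.61, 7.48 and 7.99 (log2 fold change 0.99, SE 0.16, edgeR adjusted p = 0.00071), with controls at 4.75 to 5.24. In these 3 genes every sh-A library was above every sh-C and every control library. HIST1H2BK showed a smaller difference (0.64) on a background where both hairpins were above the control range of 36.9 to 45.3 CPM, at 109, 119 and 123 and 67.0, 79.6 and 79.5. Relative to control the list's median was 1.22 with sh-A and 0.36 with sh-C. Without sh-A 3 the list had 14 genes higher and a median of 1.15, and when each library was left out in turn the number higher ran from 9 (without sh-A 4) to 14 (without sh-A 3). Histone genes of one type are close copies of each other, so reads can be split between them and single-gene values are less certain than the list. SLBP, the protein that binds the histone stem-loop and is needed for the processing without a poly(A) tail, was lower with sh-A, at 79.0, 73.0 and 70.7 CPM against 122, 126 and 121 (log2 fold change -0.73, SE 0.07, edgeR adjusted p = 2.9e-05), with controls at 99.6 to 115. It is a gene of the G1/S list and not of the histone list. Transcript ends were not measured, and a link between SLBP and the histone levels was not tested.

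The promoters of 3 of these genes are shown because 13 genes of the list were called higher and most of its promoters hold the CCAAT element. Each line holds the 200 bases before the annotated start, from RefSeq on GRCh38.p14 and in the gene's own direction, with each CCAAT element (CCAAT, or ATTGG on the other strand) in capitals. HIST1H2BD lies at chr6:26157921-26158120 on the plus strand, HIST1H2AC at chr6:26123972-26124171 on the plus strand and HIST2H2BE at chr1:149886683-149886882 on the minus strand.
HIST1H2BD: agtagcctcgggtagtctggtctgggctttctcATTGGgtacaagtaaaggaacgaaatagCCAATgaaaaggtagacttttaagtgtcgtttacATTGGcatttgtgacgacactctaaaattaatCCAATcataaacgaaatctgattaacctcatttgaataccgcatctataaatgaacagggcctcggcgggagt
HIST1H2AC: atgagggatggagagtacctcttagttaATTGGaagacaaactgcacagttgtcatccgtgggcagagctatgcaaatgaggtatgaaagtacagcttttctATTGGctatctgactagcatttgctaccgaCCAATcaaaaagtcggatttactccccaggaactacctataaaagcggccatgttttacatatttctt
HIST2H2BE: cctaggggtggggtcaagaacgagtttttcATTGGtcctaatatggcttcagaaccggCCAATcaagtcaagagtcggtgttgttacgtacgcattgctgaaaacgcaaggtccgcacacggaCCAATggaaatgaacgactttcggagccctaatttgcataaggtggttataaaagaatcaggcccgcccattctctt
HIST1H2BD holds 4 such matches in this window, and HIST1H2AC and HIST2H2BE hold 3 each. In windows from 250 bases before to 50 bases after the start, at least 1 match stood in 16 of 18 histone promoters (88.9%). A match stood in 35.7% of 27305 RefSeq promoters of that length and in 36.5% of those of genes tested. It was in 11 of 13 promoters of called histone genes and in 5 of 5 of the others. A match is a run of letters, and no binding was measured here.

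Of 19 subunits of the NuA4/TIP60 complex tested, KAT5 among them, 2 were higher with sh-A, KAT5 and VPS72, and 3 were lower, with a median of -0.19. The KAT5 call follows from the choice of this pair and is no result, though the counts and the share called include it. The share called was 26.3%, against 35.3% over all genes, and without sh-A 3 the counts were 2 higher and 7 lower. The actin-like subunit ACTL6A was at 138, 132 and 134 CPM against 173, 178 and 175 (log2 fold change -0.38, SE 0.08, edgeR adjusted p = 0.003), with controls at 126 to 141, so that the sh-C libraries were the ones away from control. RUVBL2, an AAA+ ATPase of the complex, differed by -0.34 (edgeR adjusted p = 0.012), and its call was lost without sh-C 2 and in the 6 libraries alone (edgeR adjusted p = 0.054 to 0.056) and on FPKM values (limma adjusted p = 0.13). ACTB differed by -0.27, and its call was lost without sh-A 3, sh-C 2 or sh-C 3 and in the 6 libraries alone (edgeR adjusted p = 0.071 to 0.12) and on FPKM values (limma adjusted p = 0.4). VPS72, the subunit that binds H2A.Z, differed by 0.22, and its call was lost without sh-A 3, sh-A 4, sh-C 1, sh-C 2 or sh-C 3 and in the 6 libraries alone (edgeR adjusted p = 0.064 to 0.13). Over the fits that left out 1 library the number of subunits lower ran from 1 (without sh-C 2) to 7 (without sh-A 3), with 1 in the 6 libraries alone. Among 8 genes of H2A.Z and its exchange, 3 were higher and none lower, a share of 37.5% called against 35.3% over all genes. ANP32E, a chaperone that removes H2A.Z from chromatin, was at 238, 181 and 169 CPM with sh-A and 130.0, 110.2 and 103 with sh-C (log2 fold change 0.78, SE 0.14, edgeR adjusted p = 0.0015), with controls between them at 135 to 167. SRCAP, the ATPase of the other H2A.Z-loading complex, differed by 0.36. SRCAP lost its call without sh-A 3, sh-A 5, sh-C 2 or sh-C 3 (edgeR adjusted p = 0.059 to 0.12). The third gene was VPS72. Over the same fits the number higher ran from 1 (without sh-A 3, sh-C 2 or sh-C 3) to 3 (without sh-A 5). Of 30 other acetyltransferases, deacetylases and acetyl-lysine readers, 4 were higher and 3 lower, with a median of 0.01. Their share called was 23.3%, under the 35.3% over all genes. The deacetylase SIRT1 had the lowest adjusted p of them, at 20.6, 13.0 and 13.6 CPM against 45.6, 41.4 and 44.9 (log2 fold change -1.48, SE 0.16, edgeR adjusted p = 3.9e-05), with controls at 32.6 to 40.00. The acetyltransferase CREBBP was higher with sh-A (188, 165 and 186 CPM against 144, 119.5 and 142; log2 fold change 0.41, SE 0.10, edgeR adjusted p = 0.0092). The deacetylase gene HDAC4 was also higher (0.51). The HDAC4 call was lost without sh-A 5 (edgeR adjusted p = 0.051). Over the same fits the number higher in this group ran from 2 (without sh-A 5, sh-C 2 or sh-C 3) to 5 (without sh-A 3) and the number lower from 1 (without sh-A 4, sh-A 5 or sh-C 3) to 5 (without sh-A 3), with 1 in the 6 libraries alone.

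MYC, the transcription factor that drives growth and ribosome production, differed strongly between the hairpins. It was at 561, 319 and 289 CPM with sh-A and 1219.7, 1276 and 1243 with sh-C (log2 fold change -1.68, SE 0.24, edgeR adjusted p = 0.0003), and the controls lay at 343 to 374. The sh-C libraries were more than 2-fold above every sh-A and control library, and sh-A 4 and sh-A 5 were under the lowest control while sh-A 3 was above the highest. Without sh-A 3 the difference was -2.04. Among 12 genes for MYC, MAX and their partners, 4 were higher and 3 lower with sh-A, 58.3% called against 35.3% over all genes. MXD3, a MAX partner of the repressor kind, was lower (67.9, 61.0 and 61.6 CPM against 95.5, 112 and 104; log2 fold change -0.71, SE 0.09, edgeR adjusted p = 0.00013). MXI1, another repressor, was higher (34.8, 35.6 and 35.8 CPM against 26.2, 24.4 and 25.2; log2 fold change 0.49, SE 0.10, edgeR adjusted p = 0.0024). MAX differed by -0.23. MAX lost its call without sh-A 5, sh-C 2 or sh-C 3 and in the 6 libraries alone (edgeR adjusted p = 0.053 to 0.09) and on FPKM values (limma adjusted p = 0.84). MLXIPL, a glucose-responsive factor that pairs with MLX, differed by 0.71, and by 0.42 without sh-A 4. The MLXIPL call was lost without sh-A 4, sh-C 2 or sh-C 3 (edgeR adjusted p = 0.06 to 0.091). Over the fits that left out 1 library the number of partners higher ran from 1 (without sh-A 4, sh-C 2 or sh-C 3) to 4 (without sh-A 3).

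Genes of the nucleolus and of ribosome assembly, many of them textbook MYC targets, had a median of -0.31. They were lower with sh-A in 13 of 32 cases (40.6%, against 17.4% over all genes) and higher in none. Relative to control the median was 0.04 with sh-A and 0.39 with sh-C, so the list's control levels were on balance nearer to sh-A. WDR12, a factor of large-subunit assembly, was at 54.2, 44.2 and 44.5 CPM against 79.1, 73.7 and 72.2 (log2 fold change -0.65, SE 0.11, edgeR adjusted p = 0.00082), with controls at 59.1 to 72.4, nearer to sh-C. WDR74 was at 57.0, 51.5 and 49.0 CPM against 72.2, 86.8 and 73.8 (log2 fold change -0.56, SE 0.11, edgeR adjusted p = 0.0018), with controls at 49.9 to 55.2, level with sh-A. BOP1, a partner of WDR12, was at 91.7, 74.5 and 72.9 CPM against 99.6, 124 and 116 (log2 fold change -0.51, SE 0.12, edgeR adjusted p = 0.0061). NOP56, a core protein of box C/D particles, was at 375, 247 and 226 CPM against 475, 441 and 421 (log2 fold change -0.66, SE 0.18, edgeR adjusted p = 0.012). Library sh-A 3 was near the controls, at 322 to 363, and the other sh-A libraries were under them. The count depended on single libraries and ran from 6 (without sh-A 5) to 20 (without sh-A 3). Without sh-A 3 the median was -0.50. The E-box CACGTG, the letters that MYC and MAX bind, stood in 8 of 25 promoters of this list (32%). It stood in 7.43% of all promoters of 300 bases and in 9.87% of those of genes tested. It was in 1 of 9 promoters of called genes and in 7 of 16 of the others.

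Cytosolic ribosomal protein genes were called lower in 7 of 35 and higher in none, with a median of -0.22. The share lower was 20%, near the 17.4% of all genes called lower. RPS3 was at 1112, 1031 and 969.7 CPM with sh-A and 1575, 1594 and 1530.4 with sh-C (log2 fold change -0.59, SE 0.07, edgeR adjusted p = 8.6e-05), with controls between them at 1303 to 1371. RPL19 (-0.40), RPL35 (-0.41) and RPS14 (-0.40) were also lower. The RPS14 call was lost in the 6 libraries alone (edgeR adjusted p = 0.062) and on FPKM values (limma adjusted p = 0.15), and the RPL35 call on FPKM values (limma adjusted p = 0.059). The number lower ran from 5 (without sh-A 4 or sh-C 2) to 13 (without sh-A 3), with 3 in the 6 libraries alone, and on FPKM values it was 2, with 1 gene higher and a median of -0.08. Oxidative phosphorylation subunits were lower in 11 of 33 and higher in 1, with a median of -0.22, which on FPKM values was -0.08 with 5 lower and 2 higher. The share called in either direction was 36.4%, near the 35.3% over all genes, and the share lower 33.3% against 17.4%. CYC1, the cytochrome c1 subunit of complex III, stood out in this list at 38.1, 28.9 and 29.9 CPM against 86.2, 116 and 117 (log2 fold change -1.72, SE 0.14, edgeR adjusted p = 5.3e-06), with controls at 65.2 to 78.2. SDHD of complex II was at 72.7, 85.2 and 80.3 CPM against 118, 147 and 132 (log2 fold change -0.74, SE 0.11, edgeR adjusted p = 0.00039). UQCRFS1 of complex III differed by -0.50 and ATP5D of the ATP synthase by -0.49. The number lower ran from 7 (without sh-A 4, sh-A 5 or sh-C 2) to 13 (without sh-C 1), with 5 in the 6 libraries alone.

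Immediate early genes are switched on within minutes by growth factors and stress, through factors such as SRF. Their median was the lowest of the 35 lists, -0.58. Of the genes tested, 12 of 23 (52.2%, against 17.4% over all genes) were lower with sh-A and 2 higher. Relative to control their median was 0.07 with sh-A and 0.70 with sh-C. The krüppel-like factor KLF2 was at 6.86, 5.25 and 6.58 CPM with sh-A and 17.3, 24.9 and 21.8 with sh-C (log2 fold change -1.78, SE 0.27, edgeR adjusted p = 0.00039), with controls at 4.11 to 5.64. KLF6 was at 147, 86.5 and 84.7 CPM against 308, 304 and 322 (log2 fold change -1.55, SE 0.24, edgeR adjusted p = 0.00042), with controls at 169 to 172. Library sh-A 4 and sh-A 5 were at about the same level and sh-A 3 was above them. KLF4 differed by -0.72 and IER2, a nuclear protein induced by serum, by -0.58, and in both the sh-C libraries were above the control range while sh-A was at or under it (70.4, 76.3 and 76.9 CPM for IER2, controls 67.9 to 77.8). EGR1, a zinc-finger factor, was at 152, 14.5 and 12.8 CPM with sh-A, 424, 407 and 435 with sh-C and 44.8 to 61.1 in the controls (log2 fold change -2.82, SE 0.99, edgeR adjusted p = 0.042). Library sh-A 3 was far above sh-A 4 and sh-A 5, and without it the difference was -4.95 (edgeR adjusted p = 0.00095). The EGR1 call was lost without sh-A 4, sh-A 5, sh-C 1, sh-C 2 or sh-C 3 and in the 6 libraries alone (edgeR adjusted p = 0.056 to 0.11). The 2 genes higher with sh-A were the nuclear receptors NR4A1 (0.91) and NR4A2 (0.81). The NR4A1 call was lost without sh-A 4, sh-A 5 or sh-C 2 (edgeR adjusted p = 0.057 to 0.066), and the NR4A2 call without sh-A 4, sh-A 5, sh-C 1, sh-C 2 or sh-C 3 and in the 6 libraries alone (edgeR adjusted p = 0.085 to 0.18). The number lower in the list ran from 8 (without sh-A 4 or sh-C 2) to 15 (without sh-A 3) and the number higher from 0 (without sh-A 4, sh-A 5 or sh-C 2) to 2 (without sh-A 3), with 1 in the 6 libraries alone.

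The promoter of EGR1 is shown because it holds 2 copies of the CArG box, the element that SRF binds. The line gives chr5:138465279-138465478 on the plus strand of GRCh38.p14, the 200 bases before the start in RefSeq, with each match in capitals. The form searched was CCATAT followed by 2 bases of any kind and GG, on either strand.
EGR1: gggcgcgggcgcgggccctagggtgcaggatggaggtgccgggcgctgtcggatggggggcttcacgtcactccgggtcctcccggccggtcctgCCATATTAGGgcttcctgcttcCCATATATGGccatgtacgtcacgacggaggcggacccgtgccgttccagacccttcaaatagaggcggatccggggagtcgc
In windows of 300 bases the letters stood in 2 of 20 promoters of the list (10%), those of EGR1 and SRF. They stood in 0.377% of all promoters and in 0.372% of those of genes tested. Other forms of the element were not searched.

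EGFR, the mutated driver receptor of this line, was at 123, 123 and 153 CPM with sh-A and 229, 198 and 267 with sh-C (log2 fold change -0.80, SE 0.15, edgeR adjusted p = 0.0015). The controls, at 223 to 232, lay within the sh-C range, and the groups did not overlap. Of 13 EGFR family receptors, ligands and regulators, 5 were lower with sh-A and 1 higher, 46.2% called against 35.3% over all genes. ERRFI1, a feedback inhibitor of EGFR, was at 123, 146 and 151 CPM against 337, 319 and 348 (log2 fold change -1.26, SE 0.09, edgeR adjusted p = 2e-06), with controls at 305 to 330.2. The ligand AREG was at 9.69, 8.79 and 7.66 CPM against 27.4, 26.8 and 23.6 (log2 fold change -1.57, SE 0.13, edgeR adjusted p = 6.8e-06), with controls at 33.4 to 34.2. NRG1, a ligand of ERBB3 and ERBB4, was at 14.0, 12.1 and 10.6 CPM against 24.7, 23.1 and 24.7 (log2 fold change -0.99, SE 0.10, edgeR adjusted p = 3.6e-05). The ligand EREG went the other way, at 32.9, 31.1 and 31.9 CPM against 21.2, 20.2 and 22.0 (log2 fold change 0.60, SE 0.07, edgeR adjusted p = 8.2e-05), with controls at 18.0 to 19.0. Without sh-A 3 the list had 3 genes higher and 5 lower.

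The output and feedback genes of the ERK pathway were lower in 10 of 20 and higher in 4, with a median of -0.36. In either direction 70% were called, against 35.3% over all genes. Over the fits that left out 1 library the number lower ran from 9 (without sh-A 5, sh-C 1, sh-C 2 or sh-C 3) to 11 (without sh-A 3). DUSP5, a phosphatase that switches off nuclear ERK, was at 28.9, 31.1 and 29.0 CPM with sh-A and 66.2, 73.7 and 70.8 with sh-C (log2 fold change -1.24, SE 0.07, edgeR adjusted p = 5.1e-07), with controls between them at 48.5 to 52.1. FOSL1, an AP-1 subunit, was at 148, 111 and 102 CPM against 605, 581 and 596 (log2 fold change -2.30, SE 0.16, edgeR adjusted p = 1.6e-06), with controls between them at 302 to 351. CCND1, cyclin D1, was at 169, 164 and 174 CPM against 261, 271 and 283 (log2 fold change -0.68, SE 0.07, edgeR adjusted p = 1.9e-05), and here the controls, at 258 to 265, were level with sh-C. The 4 genes higher were VGF, a secreted neuropeptide precursor (176, 147 and 159.7 CPM against 35.8, 42.3 and 43.1; log2 fold change 1.99, SE 0.15, edgeR adjusted p = 2.5e-06), the ETS factor ETV5 (0.79), the ephrin receptor EPHA4 (3.19) and the chromatin protein HMGA2 (0.61). EPHA4 was at 8.54, 1.75 and 2.02 CPM with sh-A, and without sh-A 3 the differences were 2.07 for EPHA4 and 0.40 for HMGA2. The HMGA2 call was lost on FPKM values (limma adjusted p = 0.058). Of 18 other receptor tyrosine kinases, 8 were higher with sh-A and 2 lower, 55.6% called against 35.3% over all genes. ROR1 was at 29.5, 34.8 and 34.0 CPM against 19.7, 17.9 and 22.4 (log2 fold change 0.71, SE 0.10, edgeR adjusted p = 0.00034). EPHA2 was at 77.2, 87.9 and 86.6 CPM against 137, 185 and 179 (log2 fold change -0.99, SE 0.11, edgeR adjusted p = 6.4e-05), with the control range of 78.4 to 92.5 level with sh-A. EPHB2 was the other lower one (-0.34). The EPHB2 call was lost without sh-A 3, sh-A 4, sh-C 2 or sh-C 3 and in the 6 libraries alone (edgeR adjusted p = 0.079 to 0.1) and on FPKM values (limma adjusted p = 0.27). KIT was read with sh-A alone (5.05, 1.55 and 0.97 CPM, 0 in every sh-C and control library), highest in sh-A 3. The collagen receptor DDR2 differed by 1.98 at levels of about 1 CPM or less. The number of receptors higher ran from 5 (without sh-C 2) to 8 (without sh-A 3) and the number lower from 1 (without sh-A 4, sh-C 2 or sh-C 3) to 3 (without sh-A 5), with 1 in the 6 libraries alone. AXL, a receptor linked to resistance against EGFR inhibitors, was at 52.3, 24.2 and 21.8 CPM with sh-A and 29.5, 31.8 and 30.7 with sh-C, with a log2 difference of 0.09 (edgeR adjusted p = 0.81). Its sign rested on sh-A 3: without that library the difference was -0.42 (edgeR adjusted p = 0.017).

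Targets of YAP and TEAD and genes of the Hippo pathway were lower in 10 of 27 and higher in 3. In either direction 48.1% were called, against 35.3% over all genes. Their median was -0.21, and -0.42 without sh-A 3. WWC1, also called KIBRA, an upstream activator of the Hippo kinases, was at 51.8, 56.9 and 55.6 CPM with sh-A and 159.8, 149 and 158 with sh-C (log2 fold change -1.51, SE 0.07, edgeR adjusted p = 1.6e-07), with controls at 132 to 141. AJUBA was at 52.0, 45.8 and 43.5 CPM against 81.7, 93.8 and 91.2 (log2 fold change -0.92, SE 0.08, edgeR adjusted p = 1.2e-05), with controls between them at 67.4 to 70.01. AMOTL2 was at 60.8, 55.7 and 60.7 CPM against 87.8, 97.1 and 108 (log2 fold change -0.72, SE 0.11, edgeR adjusted p = 0.00033), and its controls, at 52.9 to 55.8, were nearer to sh-A. The genes higher with sh-A were the DNA-binding partner TEAD2 (0.87), the kinase LATS2 (0.67) and AMOTL1 (0.51), the last a call lost without sh-A 3, sh-A 5, sh-C 1, sh-C 2 or sh-C 3 (edgeR adjusted p = 0.05 to 0.14).

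Epithelial identity and junction genes were lower with sh-A in 13 of 33 and higher in 4, with a median of -0.26. In either direction 51.5% were called, against 35.3% over all genes. The median was -0.06 without sh-A 3, with 6 higher and 12 lower. The number of junction genes higher ran from 2 (without sh-A 4, sh-A 5 or sh-C 2) to 6 (without sh-A 3). The epithelial keratins KRT7 and KRT18, EPCAM and the lung factor NKX2-1 were read in all 6 libraries. They are picked from longer lists, of which 17 of 27 lung lineage genes and 11 of 18 keratins could be tested. The identity of the cells was not tested. CDH1, which encodes E-cadherin, was at 129, 211 and 216 CPM with sh-A and 628, 627 and 669 with sh-C (log2 fold change -1.79, SE 0.16, edgeR adjusted p = 1.2e-05), with controls at 708 to 722. All 3 sh-A libraries were far below every sh-C and control library, and sh-A 3 was the lowest. Going the other way, the epithelial ETS factor EHF was at 2.75, 8.65 and 9.34 CPM against 0.36, 0.26 and 0.40 (log2 fold change 4.34, SE 0.47, edgeR adjusted p = 4.5e-05), and CLDN1 differed by 0.82. DSC2 (0.34) lost its call without sh-A 4, sh-A 5 or sh-C 2 (edgeR adjusted p = 0.063 to 0.1). MUC1 was at 16.7, 64.3 and 50.9 CPM against 18.2, 14.4 and 15.4 and 78.3 to 142 in the controls (1.46). Library sh-A 3 lay within the sh-C range and the call was lost without sh-A 4, sh-A 5, sh-C 1, sh-C 2 or sh-C 3 (edgeR adjusted p = 0.062 to 0.13) and on FPKM values (limma adjusted p = 0.056). In bulk libraries fewer cells with a transcript and less of it per cell cannot be told apart.

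Keratins were lower with sh-A in 7 of 11 (63.6%, against 17.4% over all genes) and higher in none, with a median of -0.55. KRT7, a keratin of simple epithelia, was at 1396, 969 and 1013 CPM against 2241, 2289 and 2139 (log2 fold change -0.98, SE 0.15, edgeR adjusted p = 0.00048), with controls at 1346 to 1469. Library sh-A 3 was level with the controls and sh-A 4 and 5 were under them. KRT80 was at 159.7, 171 and 168 CPM against 223, 250.2 and 258 (log2 fold change -0.55, SE 0.07, edgeR adjusted p = 0.00015), and the controls, at 146 to 153, were nearer to sh-A. KRT10 differed by -0.62. KRT81, which shares sequence with other hair keratins and is less certain for it, was at 1.52, 1.51 and 1.91 CPM against 6.31, 7.30 and 7.05 and 12.5 to 16.7 in the controls (log2 fold change -2.06, SE 0.17, edgeR adjusted p = 7.2e-06).

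Serine proteases of epithelia, membrane-anchored or secreted, and their inhibitors had members called in both directions. ST14, which encodes matriptase, was at 103, 168 and 173 CPM with sh-A and 583, 669.7 and 643 with sh-C (log2 fold change -2.09, SE 0.17, edgeR adjusted p = 5.1e-06), with controls at 487 to 549. Its inhibitor SPINT1 was at 26.2, 44.2 and 41.9 CPM against 111, 129.7 and 122 (log2 fold change -1.69, SE 0.15, edgeR adjusted p = 1.3e-05), with controls at 116 to 122. TMPRSS11E was at 14.1, 19.96 and 18.7 CPM against 53.5, 54.5 and 52.5 (log2 fold change -1.61, SE 0.12, edgeR adjusted p = 2.6e-06). PRSS23 was at 236, 266 and 261 CPM against 495, 513 and 469 (log2 fold change -0.95, SE 0.07, edgeR adjusted p = 3.1e-06). In these 4 genes the controls were nearer to sh-C than to sh-A. In all, 8 of 17 were lower and 4 higher, 70.6% called against 35.3% over all genes. The list's median was -0.36, and 0.11 without sh-A 3. The higher ones were PRSS8, which encodes prostasin (1.56), TMPRSS4 (1.79), the secreted inhibitor SLPI (1.19) and KLK7 (1.06). For PRSS8, TMPRSS4 and SLPI the controls and sh-A 4 and 5 were level while sh-A 3 lay within the sh-C range, as in PRSS8 at 2.30, 7.72 and 7.81 CPM with sh-A, 1.58, 2.41 and 2.01 with sh-C and 6.29 to 8.26 in the controls. The call was lost for TMPRSS4 without sh-A 4, sh-A 5, sh-C 1 or sh-C 2 (edgeR adjusted p = 0.062 to 0.067), for SLPI without sh-A 4, sh-A 5 or sh-C 1 and in the 6 libraries alone (edgeR adjusted p = 0.059 to 0.075) and for KLK7 without sh-A 5 or sh-C 1 (edgeR adjusted p = 0.064 to 0.077). The number higher ran from 1 (without sh-A 5 or sh-C 1) to 5 (without sh-A 3).

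Of 37 mesenchymal, matrix and integrin genes tested, 17 were higher with sh-A and 7 lower, with a median of 0.43. In either direction 64.9% were called, against 35.3% over all genes. The list's median relative to control was 0.02 with sh-A and -0.09 with sh-C, so both were near control. COL6A1, a collagen VI chain, was at 94.8, 79.9 and 73.5 CPM with sh-A and 46.6, 45.3 and 47.4 with sh-C (log2 fold change 0.83, SE 0.10, edgeR adjusted p = 8.7e-05), with controls at 43.3 to 49.5, level with sh-C. ACTA2, smooth muscle actin, was at 4.15, 4.37 and 4.34 CPM against 1.63, 1.63 and 1.29 (log2 fold change 1.49, SE 0.20, edgeR adjusted p = 0.00016). Of the 7 genes lower, 6 encode integrins and laminin chains by which epithelial cells hold on to the basement membrane. ITGA6 was at 202, 197 and 199 CPM against 347, 311 and 343 (log2 fold change -0.75, SE 0.08, edgeR adjusted p = 3.6e-05). ITGA3 was at 191, 259 and 275 against 395, 429 and 433 (log2 fold change -0.79, SE 0.13, edgeR adjusted p = 0.00062), and ITGB1 differed by -0.52. The laminin chain LAMB3 differed by -0.63 and LAMA3 by -0.49. The seventh, TAGLN, differed by -0.76 at about 1 to 2 CPM. TAGLN lost its call without sh-A 4, sh-A 5, sh-C 1, sh-C 2 or sh-C 3 and in the 6 libraries alone (edgeR adjusted p = 0.06 to 0.16). Beside these counts, the fibroblast list summed to 28.9 to 32.0 CPM with sh-A and 18.8 to 20.3 with sh-C, with 1 to 4 of its 10 genes at 0 in each library, and the HEK293 list as given above. Their part in the mesenchymal counts was not tested. Without sh-A 3 the counts were 18 and 9 and the median 0.36.

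Of 23 matrix proteases and plasminogen activation genes, 7 were lower and 4 higher. The share higher was 17.4%, level with the 17.9% over all genes, and the share lower 30.4% against 17.4%. Next to MMP13, ADAM9 was lower at 261, 299 and 303 CPM against 548, 483 and 491 (log2 fold change -0.82, SE 0.09, edgeR adjusted p = 3.6e-05), with controls at 548 to 583. The 4 higher genes were at low levels in sh-C and highest in sh-A 3. They were ADAMTS1 (11.6, 2.72 and 3.06 CPM against 0.05, 0.11 and 0.13), TIMP3 (11.2, 2.38 and 2.73 against 0, 0 and 0), SERPINE2 (7.35, 1.36 and 1.83 against 0, 0.11 and 0) and the gelatinase MMP2 (2.26, 1.07 and 1.46 against 0.36, 0.19 and 0.40; log2 fold change 2.35, SE 0.39, edgeR adjusted p = 0.00068). Of 17 lung lineage and alveolar genes tested, 7 were higher and 2 lower, with a median of 0.36 (0.43 without sh-A 3). In either direction 52.9% were called, against 35.3% over all genes. The number of lineage genes higher ran from 4 (without sh-A 4, sh-A 5 or sh-C 1) to 8 (without sh-A 3), with 4 in the 6 libraries alone. The stem cell factor SOX2 was at 9.90, 14.2 and 13.1 CPM with sh-A and 4.53, 3.26 and 3.75 with sh-C (log2 fold change 1.69, SE 0.22, edgeR adjusted p = 0.00015), with controls at 3.34 to 4.88. CEBPA, a factor of alveolar differentiation, was at 5.75, 3.89 and 5.01 CPM against 1.37, 1.74 and 1.83 (log2 fold change 1.56, SE 0.24, edgeR adjusted p = 0.00042), with controls at 1.35 to 2.02. The lower ones were SOX9, a distal lung progenitor factor (52.5, 62.7 and 56.4 CPM against 108, 82.3 and 96.6; log2 fold change -0.74, SE 0.10, edgeR adjusted p = 0.00018), and the caveolar protein CAV1 (-0.33). The CAV1 call was lost in the 6 libraries alone (edgeR adjusted p = 0.057) and on FPKM values (limma adjusted p = 0.11).

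**Figure D3:**
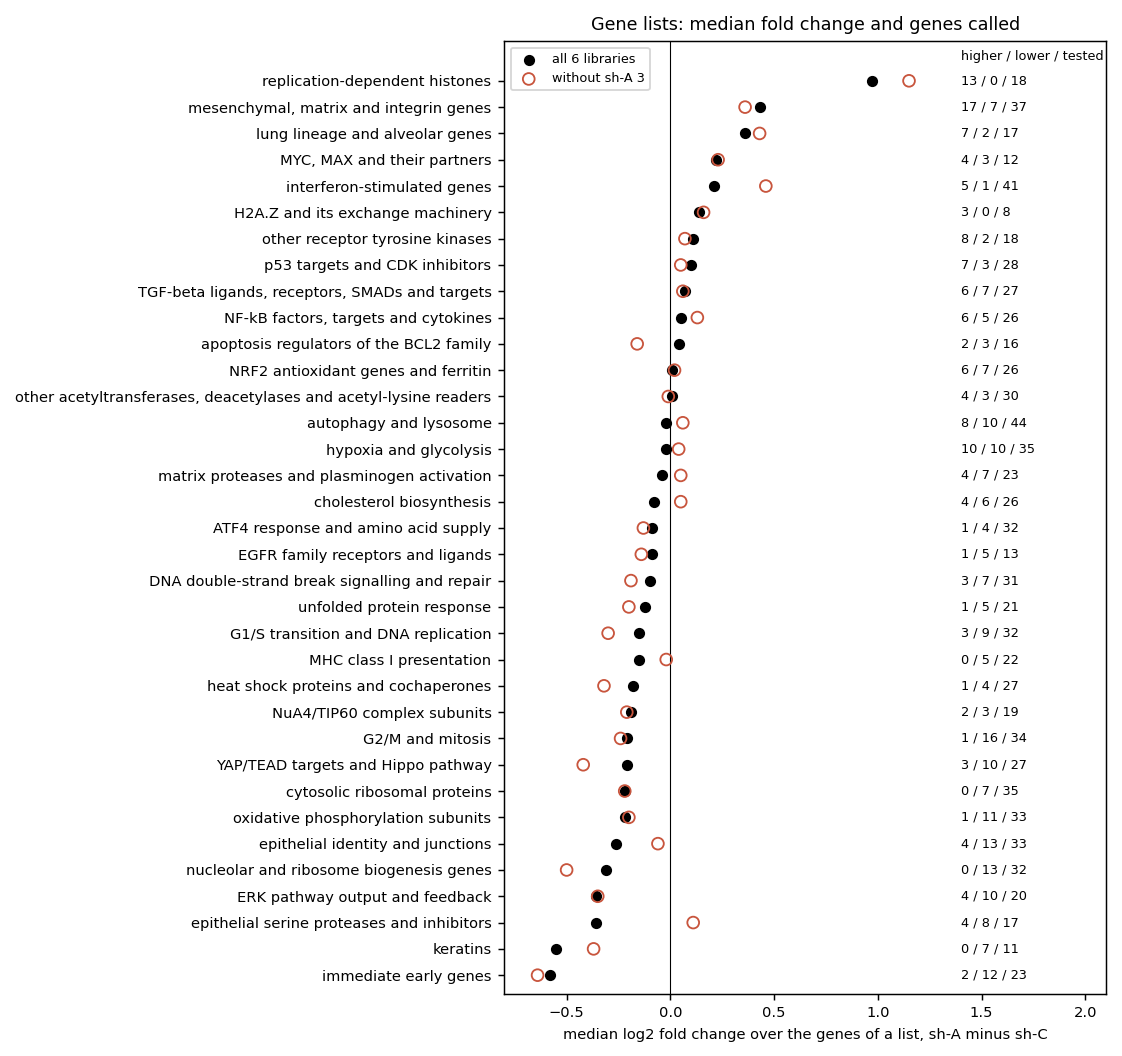
Median log2 fold change, sh-A minus sh-C (horizontal), over the tested genes of each of 35 gene lists; filled circles use all 6 libraries and open circles leave out sh-A 3, and the numbers at the right give genes called higher, called lower and tested. Histones lie highest at 0.97 and immediate early genes lowest at -0.58; the interferon-stimulated list and the serine protease list move most when sh-A 3 is left out.

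In the G2/M and mitosis list 16 of 34 (47.1%, against 17.4% over all genes) were lower and 1 higher, with a median of -0.21. ANLN, the anillin of the cleavage furrow, was at 639.5, 669 and 668 CPM with sh-A and 1601, 1301 and 1379 with sh-C (log2 fold change -1.12, SE 0.09, edgeR adjusted p = 5.1e-06), with controls at 1338 to 1560.2, level with sh-C. CDC20, an activator of the anaphase-promoting complex, was at 224, 199 and 205 CPM against 352, 425 and 413 (log2 fold change -0.92, SE 0.09, edgeR adjusted p = 2e-05), with controls between them at 252 to 286. The kinase AURKA was at 119, 123 and 122 CPM against 199.6, 198 and 199 (log2 fold change -0.71, SE 0.08, edgeR adjusted p = 4.1e-05), also with controls between them at 150.1 to 161. The centromeric histone CENPA differed by -0.57. The 1 gene higher was BUB1B (0.31). Without sh-A 3 it differed by 0.18, and its call was lost without sh-A 3, sh-A 4, sh-C 1, sh-C 2 or sh-C 3 and in the 6 libraries alone (edgeR adjusted p = 0.065 to 0.16). In the G1/S and replication list 9 of 32 were lower and 3 higher, a share of 37.5% called against 35.3% over all genes. TYMS, thymidylate synthase, was at 85.2, 72.2 and 73.0 CPM against 177, 182 and 183 (log2 fold change -1.23, SE 0.09, edgeR adjusted p = 2.3e-06), and the controls, at 80.4 to 95.1, were nearer to sh-A. The licensing factor CDC6 was at 125, 100.01 and 100.2 CPM against 180.2, 161 and 162 (log2 fold change -0.63, SE 0.11, edgeR adjusted p = 0.00084). Higher with sh-A were the kinase CDK2 (0.38), the polymerase POLE (0.47) and E2F2 (0.44), the last a call lost without sh-A 4, sh-A 5, sh-C 1, sh-C 2 or sh-C 3 (edgeR adjusted p = 0.074 to 0.15). The number lower in the G1/S list ran from 7 (without sh-A 5) to 18 (without sh-A 3). On FPKM values the medians of both lists were nearer to 0, at -0.07 for G2/M and -0.03 for G1/S.

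The targets of p53 and the CDK inhibitors showed both directions, 7 of 28 higher and 3 lower (9 and 5 without sh-A 3). The share called was 35.7%, level with the 35.3% over all genes. CDKN1A, the p21 inhibitor and a classical p53 target, was at 32.5, 38.8 and 37.1 CPM with sh-A and 28.6, 38.5 and 36.0 with sh-C, with overlapping groups (log2 fold change 0.07, SE 0.11, edgeR adjusted p = 0.66). The difference was 0.14 without sh-A 3. BTG2, an antiproliferative p53 target, was at 10.9, 8.26 and 8.63 CPM against 1.32, 1.85 and 1.52 (log2 fold change 2.55, SE 0.23, edgeR adjusted p = 1.2e-05), with controls at 1.77 to 1.92. CDKN1B, the p27 inhibitor, was at 49.8, 60.2 and 57.9 CPM against 34.7, 33.6 and 31.9 (log2 fold change 0.74, SE 0.11, edgeR adjusted p = 0.00036), with controls between them at 46.6 to 47.0. Lower with sh-A were CDKN2B, the p15 inhibitor (16.1, 20.6 and 19.2 CPM against 40.5, 35.3 and 39.4; log2 fold change -1.05, SE 0.09, edgeR adjusted p = 1.2e-05), the kinase PLK3 (-0.98) and the nuclease AEN (-0.81). Of 31 genes of double-strand break signalling and repair, 7 were lower and 3 higher, a share of 32.3% called against 35.3% over all genes. H2AFX, the histone variant phosphorylated at breaks, was at 120.2, 136 and 140.5 CPM against 217, 303 and 290.1 (log2 fold change -1.03, SE 0.13, edgeR adjusted p = 0.00012), with controls between them at 166 to 205. XRCC4, of end joining, differed by -0.78. The checkpoint kinase CHEK2 was higher with sh-A, at 35.1, 34.0 and 34.2 CPM against 22.9, 24.0 and 22.8 (log2 fold change 0.57, SE 0.07, edgeR adjusted p = 9.2e-05). TP53BP1 (0.33) and BRCA2 (0.41) were higher too, with calls lost for TP53BP1 without sh-C 2 (edgeR adjusted p = 0.051) and for BRCA2 without sh-A 3, sh-A 5, sh-C 2 or sh-C 3 and in the 6 libraries alone (edgeR adjusted p = 0.08 to 0.19). The number lower in the repair list ran from 6 (without sh-A 4, sh-A 5 or sh-C 2) to 13 (without sh-A 3), with 4 in the 6 libraries alone and the number higher from 1 (without sh-C 2) to 4 (without sh-A 4).

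Interferon-stimulated genes, which cells express in response to viral nucleic acid or cytokines, had the count that moved most when sh-A 3 was left out. With all libraries 5 of 41 were higher with sh-A and 1 lower (median 0.21), and without sh-A 3 the counts were 24 and 1 (median 0.46). With all libraries the share called was 14.6%, under the 35.3% over all genes. Over the fits that left out 1 library the number higher ran from 3 (without sh-A 4, sh-A 5, sh-C 2 or sh-C 3) to 24 (without sh-A 3) and the number lower from 0 (without sh-A 4, sh-C 1, sh-C 2 or sh-C 3) to 5 (without sh-A 5), with 0 in the 6 libraries alone, and the median took both signs over the alternatives, from -0.04 to 0.50. IFI16, a nuclear DNA sensor, was at 294, 474 and 487 CPM with sh-A and 169, 148 and 143 with sh-C (log2 fold change 1.45, SE 0.16, edgeR adjusted p = 5.1e-05), with controls at 249.8 to 297. BST2, also called tetherin, was at 21.2, 36.1 and 44.4 CPM against 12.1, 15.6 and 13.3 (log2 fold change 1.31, SE 0.23, edgeR adjusted p = 0.00099), with controls at 32.4 to 45.6. IFI44L was at 9.45, 24.9 and 47.4 CPM against 6.21, 6.74 and 6.56 (log2 fold change 2.07, SE 0.42, edgeR adjusted p = 0.0025), with controls at 26.4 to 37.8, so that the sh-C libraries were the ones farthest from control. STAT2 differed by 0.41. STAT2 lost its call without sh-A 4, sh-A 5, sh-C 1, sh-C 2 or sh-C 3 (edgeR adjusted p = 0.062 to 0.1). The 1 gene lower was SAMD9L (-0.93). Without sh-A 3 it differed by -0.59, and it lost its call without sh-A 4, sh-C 1, sh-C 2 or sh-C 3 and in the 6 libraries alone (edgeR adjusted p = 0.057 to 0.11). In BST2, IFI44L and SAMD9L sh-A 3 was the lowest of the sh-A libraries.

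Genes of MHC class I presentation were lower with sh-A in 5 of 22 and higher in none. The share lower was 22.7%, against 17.4% over all genes. Without sh-A 3 they were lower in 6 and higher in 3. The peptide transporters TAP1 (18.4, 23.6 and 24.8 CPM against 34.7, 40.1 and 38.2; log2 fold change -0.76, SE 0.11, edgeR adjusted p = 0.00036) and TAP2 (-0.46) and the proteasome activator PSME3 (-0.72) were lower. In the NF-kB list 6 of 26 were higher and 5 lower, a share of 42.3% called against 35.3% over all genes. Higher were SOD2, the mitochondrial superoxide dismutase (75.5, 71.6 and 69.6 CPM against 49.4, 52.0 and 53.3; log2 fold change 0.49, SE 0.07, edgeR adjusted p = 0.00033), NFKBIZ (1.10) and, at about 1 CPM with sh-A, IL1A (2.81, and 4.39 without sh-C 2). The cytokine LIF (-0.53), the subunits NFKB2 (-0.48) and RELA (-0.41) were lower, as were TNIP1 (-0.31) and IL32 (-1.19). The TNIP1 call was lost without sh-C 1 and in the 6 libraries alone (edgeR adjusted p = 0.057 to 0.082) and on FPKM values (limma adjusted p = 0.13), and the IL32 call without sh-A 4 or sh-A 5 (edgeR adjusted p = 0.054 to 0.056). In the TGF-beta list 6 of 27 were higher and 7 lower (4 lower in the 6 libraries alone), 48.1% called against 35.3% over all genes. SMAD3 was at 145, 169 and 159 CPM against 233, 211 and 241 (log2 fold change -0.53, SE 0.08, edgeR adjusted p = 0.00031) and BMP2 differed by -0.50, while LTBP2 (1.03), ID2 (1.03) and TGFB3 (0.55) were higher.

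The hypoxia and glycolysis list had 57.1% called, against 35.3% over all genes, with a median of -0.02. It was evenly divided, 10 of 35 genes higher with sh-A and 10 lower. In this tie the naming rule took all 10 lower genes. Of the higher ones only SLC2A3 is given below, so the names do not show the balance of the list. LDHA, lactate dehydrogenase, was at 1825, 1779 and 1814 CPM with sh-A and 2602, 2597 and 2459 with sh-C (log2 fold change -0.50, SE 0.06, edgeR adjusted p = 0.00011), with controls at 2591 to 2665, level with sh-C. PKM, pyruvate kinase, was at 2001, 1861 and 1975.4 CPM against 2912, 2754 and 2663 (log2 fold change -0.51, SE 0.07, edgeR adjusted p = 0.00021). HK1 (-0.35), PFKP (-0.41) and ENO1 (-0.37) were lower too, and the ENO1 call was lost on FPKM values (limma adjusted p = 0.069). The glucose transporters moved apart. SLC2A1 was at 102, 132 and 137 CPM against 173, 219.7 and 221 (log2 fold change -0.72, SE 0.15, edgeR adjusted p = 0.0027). SLC2A3 was at 32.8, 68.8 and 73.4 CPM against 19.4, 22.9 and 19.0 (log2 fold change 1.51, SE 0.24, edgeR adjusted p = 0.0006). BNIP3, a mitophagy receptor induced by hypoxia, was lower (-0.63), as was the peptide hormone ADM (-0.80). GAPDH differed by -0.40 with its call lost without sh-C 2 and in the 6 libraries alone (edgeR adjusted p = 0.063 to 0.078) and on FPKM values (limma adjusted p = 0.18), and PGK1 by -0.27 with its call lost without sh-A 4, sh-C 2 or sh-C 3 and in the 6 libraries alone (edgeR adjusted p = 0.057 to 0.076) and on FPKM values (limma adjusted p = 0.31). Of 44 autophagy and lysosome genes, which include WDR45B, 10 were lower and 8 higher, and the number higher ran from 5 (without sh-C 3) to 12 (without sh-A 3). Their share called was 40.9%, against 35.3% over all genes. ATG12 (-0.55) and the proton pump subunit ATP6V0D2 (0.66, 0.87 and 0.86 CPM against 3.41, 3.41 and 2.63; -1.98) were lower. The kinase ULK1 (0.79), ATP6V0A1 (0.53), ATP6V1B2 (0.32), the receptor NBR1 (0.43) and ATG14 (0.40) were higher. In the NRF2 list 6 of 26 were higher and 7 lower, 50% called against 35.3% over all genes. The number of NRF2 genes higher ran from 3 (without sh-A 4, sh-A 5 or sh-C 3) to 8 (without sh-A 3) and the number lower from 4 (without sh-A 5) to 8 (without sh-A 3). The export pumps ABCC2 (13.6, 34.1 and 30.6 CPM against 5.85, 5.19 and 6.02; log2 fold change 2.20, SE 0.27, edgeR adjusted p = 9.7e-05) and ABCC3 (1.27) and heme oxygenase HMOX1 (0.82) were higher. TALDO1 (-0.57) and SRXN1 (-0.46) were lower. Cholesterol biosynthesis had 4 of 26 higher and 6 lower, a share of 38.5% called against 35.3% over all genes. DHCR7, the enzyme of the last step, was at 40.5, 41.8 and 43.1 CPM against 67.6, 77.8 and 81.4 (log2 fold change -0.86, SE 0.08, edgeR adjusted p = 2.4e-05). The number of cholesterol genes higher ran from 2 (without sh-A 4, sh-A 5, sh-C 1, sh-C 2 or sh-C 3) to 7 (without sh-A 3) and the number lower from 1 (without sh-C 2) to 6 (without sh-A 4), with 2 in the 6 libraries alone.

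Of 32 ATF4 and amino acid supply genes 1 was higher and 4 lower, a share of 15.6% called against 35.3% over all genes. The share called was 28.6% in the unfolded protein response, 18.5% in the heat shock list and 31.2% in the BCL2 family. PHGDH, the first enzyme of serine synthesis, was at 141, 57.4 and 54.2 CPM with sh-A and 35.2, 39.8 and 35.7 with sh-C (log2 fold change 1.19, SE 0.28, edgeR adjusted p = 0.0061), with controls at 33.6 to 35.8. Library sh-A 3 was more than 2-fold above the other sh-A libraries, and the difference without it was 0.59. STC2 differed by -0.48, SLC3A2 by -0.35 and TRIB3 by -0.75. The SLC3A2 call was lost in the 6 libraries alone (edgeR adjusted p = 0.051) and on FPKM values (limma adjusted p = 0.08), and the TRIB3 call without sh-C 2 and in the 6 libraries alone (edgeR adjusted p = 0.054 to 0.058). The number higher ran from 1 (without sh-A 4, sh-A 5, sh-C 2 or sh-C 3) to 3 (without sh-A 3) and the number lower from 2 (without sh-C 2) to 8 (without sh-A 3), with 1 in the 6 libraries alone. In the unfolded protein response 5 of 21 were lower and 1 higher. HYOU1, a chaperone of the endoplasmic reticulum, was at 193, 125 and 131 CPM against 289.9, 261 and 278 (log2 fold change -0.88, SE 0.14, edgeR adjusted p = 0.00054). DNAJB11 differed by -0.79 and DERL1 by -0.65, and DNAJB9 was higher (0.64). The number lower ran from 4 (without sh-A 4, sh-A 5, sh-C 1 or sh-C 2) to 8 (without sh-A 3). Of 27 heat shock proteins and cochaperones 4 were lower and 1 higher, and the number lower ran from 1 (without sh-A 4 or sh-A 5) to 12 (without sh-A 3), with 2 in the 6 libraries alone. HSPA8, the constitutive HSP70, was at 3354, 2209.9 and 2193 CPM against 3727, 3935 and 3718 (-0.55). HSPA8 lost its call without sh-A 4, sh-A 5, sh-C 1, sh-C 2 or sh-C 3 and in the 6 libraries alone (edgeR adjusted p = 0.052 to 0.13) and on FPKM values (limma adjusted p = 0.06). HSPA1B, which shares most of its sequence with HSPA1A, was at 452, 196 and 195 CPM against 165, 166 and 186 (0.71). The HSPA1B difference was 0.19 without sh-A 3, and its call was lost without sh-A 3, sh-C 1, sh-C 2 or sh-C 3 and in the 6 libraries alone (edgeR adjusted p = 0.082 to 0.12). Among 16 BCL2 family regulators, the survival protein BCL2L1 was lower with sh-A at 68.5, 81.5 and 71.7 CPM against 129, 128 and 126 (log2 fold change -0.79, SE 0.09, edgeR adjusted p = 4.7e-05), with controls at 133 to 146. BAK1, a pore-forming killer, was lower as well (10.1, 10.3 and 7.74 CPM against 18.2, 23.9 and 20.9; log2 fold change -1.16, SE 0.14, edgeR adjusted p = 7.6e-05). The activators BID (0.96) and BCL2L11, also called BIM (0.58), were higher. In all, 3 were lower and 2 higher, and the counts without sh-A 3 were 4 and 5.

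Some genes were read with 1 hairpin and hardly at all with the other. Of those read with sh-A, the 6 with the highest CPM, a measure not corrected for transcript length, were AMOT, a partner of YAP, IRS4, an insulin receptor substrate, IGF2BP1, an RNA-binding protein of fetal tissue, NGFRAP1, NID1, a basement membrane protein, and AUTS2. AMOT was at 232, 36.9 and 40.4 CPM with sh-A and 0 in the 3 sh-C libraries, at least 2410-fold higher against a floor of 3 counts over the group. Without sh-A 3 the bound was 895-fold. IRS4 was at 142, 20.3 and 21.2 CPM against 0, 0.07 and 0.09, 1070 times as high (counting interval 419 to 3940), or 359 times (140 to 1320) without sh-A 3. The ratio was 608 for IGF2BP1 (260 to 1880) and 260 for AUTS2 (111 to 802). Without sh-A 3 it was 235 (100 to 726) for IGF2BP1 and 101 (43.0 to 314) for AUTS2. All 6 were several times higher in sh-A 3 than in sh-A 4 or 5. IGF2BP1 was at 0.13 to 0.32 CPM in the controls and 0.05, 0.07 and 0.09 with sh-C. In the 118 genes read almost only with sh-A, sh-A 3 was a median of 5.34 times the mean of the other sh-A libraries (quartiles 4.61 and 6.31). Intervals and floors cover counting error only. The mirror group, read with sh-C and hardly with sh-A, was sparse and at about 1 to 2 CPM. AADACP1, a pseudogene, was at 1.58, 2.30 and 2.23 CPM with sh-C and 0 with sh-A, at least 49.5-fold lower with sh-A (32.7-fold without sh-A 3). CEACAM7, a cell adhesion molecule, was at 1.32, 1.22 and 0.85 CPM against 0, 0.05 and 0.07, with controls higher than both at 2.57 to 3.59 (ratio of sh-C to sh-A 27.0, counting interval 8.9 to 134). ELOVL2-AS1, an antisense RNA whose strand the named library steps do not mark, had a ratio of 47.7 (16.0 to 234), MYL1, a muscle myosin light chain, 34.8 (9.26 to 293), SLC45A2, a melanosomal transporter, 58.1 (10.0 to 2340), and LINC01124 10.9 (3.95 to 41.9). The ratio for CEACAM7 was 17.8 (5.88 to 88.3) without sh-A 3, and that for LINC01124 14.4 (3.74 to 123). ELOVL2-AS1, MYL1 and SLC45A2 had 0 counts in sh-A 4 and sh-A 5, and were at least 31.5-fold, 15.3-fold and 12.8-fold lower there than with sh-C. Between these levels, and chosen after its values were seen, was the olfactory receptor gene OR51B5, at 0.53, 0 and 0.15 CPM against 13.4, 17.1 and 17.3 (log2 fold change -6.05, SE 0.44, edgeR adjusted p = 2.5e-06). Its controls were at 5.76 to 6.94 CPM, between the hairpins.

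The genes at least 2-fold higher with sh-A were split by their level with sh-C. In 774 of the 1210 the sh-C mean was under 1 CPM. Such genes can pass the filter on low counts through sh-A alone. The cut itself therefore shapes their spread within sh-A. In 492 of these sh-A 3 was over 2 times the mean of sh-A 4 and 5, and the median ratio was 3.16. In the other 436, with sh-C at 1 CPM or more, the ratio was over 2 in 107 and under 0.5 in 72, with a median of 1.04. Among the 307 genes at least 2-fold lower with sh-A, 234 had an sh-A mean of 1 CPM or more. Over all 307, not split by level, the median ratio was 1.05, with 25 genes over 2 and 16 under 0.5. Over all genes tested the median ratio was 1.01.

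**Figure D4:**
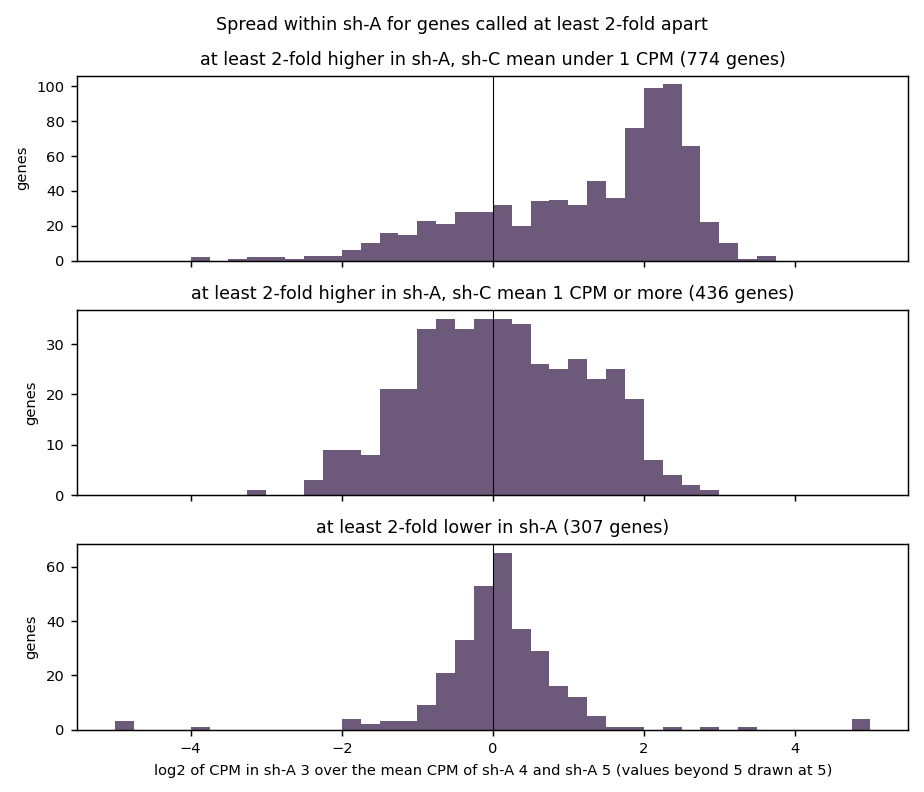
Number of genes (vertical) by log2 of the CPM in sh-A 3 over the mean CPM of sh-A 4 and 5 (horizontal), for genes called at least 2-fold apart. The 774 genes with sh-C under 1 CPM peak at a ratio above 4, while the 436 genes higher with sh-A at other levels and the 307 genes lower with sh-A centre near a ratio of 1.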

How the data were processed

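RNA-seq was read in 12 libraries of H1975 cells, and the 6 of sh-A and sh-C were compared. Expected counts were estimated per gene by the authors' pipeline, in which reads, aligned to hg19, passed through Bowtie2, HISAT and RSEM per the submitters' processing notes; the order and versions of these tools are not given in the sources used. FPKM values, expected counts per transcript length and library size, were deposited by the authors beside them and served as an alternative only. Messenger RNA was poly(A)-selected, per the labels' protocols, and of the expected counts above 0, 66.1% were whole to within 0.005. Of 20433 genes listed, 15620 took their symbols from the authors' deposited tables and 4734 from RefSeq, and 79 had none.

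Expected counts were rounded and scaled by TMM. Genes were filtered with filterByExpr (minimum count 10) and tested with edgeR 4.0.16 in R 4.3.3 by its quasi-likelihood test. All 12 libraries entered the fit, 1 mean per group, with 8 residual degrees of freedom and a common biological coefficient of variation of 0.145. The contrast was sh-A minus sh-C, and genes were called at a Benjamini-Hochberg adjusted p below 0.05 over 15592 genes. Levels are TMM-scaled CPM. Precision rests on 3 libraries per group. On simulated counts for 15436 genes the same steps called 83 of 100 genes changed 2-fold, 95 of 100 changed 4-fold and 5 of 15236 unchanged genes. The simulation gave all groups 1 mean per gene, changed only genes at 1 CPM or more, and had no library apart like sh-A 3. In the data 35.3% of genes were called, so these rates do not carry over to them. Alternatives were DESeq2 1.42.0, its size factors in edgeR, limma 3.58.1 on log2(FPKM + 0.1), 2 other filters on low counts, a scaling without 118 genes read almost only with sh-A, the 6 libraries alone, and fits without single libraries.

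The members and gene lists were chosen with earlier results of these data known. Named were KAT5, EGFR, MYC, AXL, CDKN1A, CDH1, WDR45B and SETD9; the 10 largest differences in each direction with at least 1 CPM in both groups, calls with and without sh-A 3 and no overlap; the 6 with the highest CPM in each direction under 0.1 CPM in the other group; and from each list the members with the smallest adjusted p. In each list, members called in the less frequent direction were named too, and in a tie those lower with sh-A. Other genes of short counts were named after their values were seen. The third knockdown hairpin entered the fit and is not described. Promoters came from RefSeq on GRCh38.p14, matched by gene ID, and no coordinate of the files was used. Some members named by the rule are not reported here, and the counts include them.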

Additional observations from a re-analysis of the deposited data

How the results depend on the processing

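The counts of genes called higher and lower in either size class stayed within 1.5 times their main values under the alternatives, with 2 exceptions. With at least 50 counts required in 3 libraries, 576 genes were at least 2-fold higher with sh-A in place of 1210, and 13138 genes were tested in place of 15592. On FPKM values with limma, 1691 genes were lower in place of 2715; the cause was not tested. Leaving out 1 library at a time, 2150 to 3388 genes were higher and 2086 to 3338 lower, at least 2-fold higher 1162 to 1299 and at least 2-fold lower 291 to 391. The log2 difference of AXL (0.09) ran from -0.42 to 0.32 and was -0.45 without sh-A 3 and sh-C 1 together, and that of CDKN1A (0.07) ran from -0.05 to 0.15. Of 243 named genes, the call kept its side and direction in 210 in the 6 libraries alone, 201 to 233 with 1 library left out, 241 with DESeq2's size factors, 236 with DESeq2, 234 without a filter and 222 on FPKM values. No paired analysis was possible because sh-A and sh-C share only 1 replicate number, 3. Depth limits the genes read with 1 hairpin and hardly with the other, whose fold rests on a few counts. In 774 of the 1210 genes the sh-C mean was under 1 CPM.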
